A study of Mus musculus with 6 samples.

Results

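The genes of the proteasome subunits were described in RNA from the corpus callosum, the tract of axons that joins the cortical hemispheres, of mouse pups on postnatal day 4. They were taken as every gene whose symbol starts with Psma, Psmb, Psmc, Psmd or Psme, which gave 45 of the 24411 genes in the tables, with 50 transcripts. Of these, 19 encode the core particle: 14 standard subunits, the inducible Psmb8, Psmb9 and Psmb10, the testis subunit Psma8 and the thymus subunit Psmb11. Of the 45, 17 encode subunits of the regulatory particle, 3 its assembly chaperones and 5 activators that cap the core in its place. Psmc3ip, a protein of meiotic recombination, shares only the start of its name. The rule on symbols leaves out Adrm1 and Shfm1, subunits of the regulatory particle that are given with the other pathway genes. The libraries fall into 2 groups, 3 labelled Mettl14 cKO, a conditional knockout of a subunit of the enzyme that writes N6-methyladenosine on mRNA, and 3 labelled WT. All came from B6 mice by dissection of 60 µm frozen sections and purification of polyadenylated RNA. The Cre driver of the knockout is not given in the sources used here, and the labels do not say whether each library is 1 animal, so p-values measure the spread between these libraries only.

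The proteasome is the cell's main protease for proteins tagged with ubiquitin. Its core particle is a barrel of stacked rings, with outer rings of alpha subunits that gate the entry and inner rings of beta subunits, of which Psmb5, Psmb6 and Psmb7 carry the active sites. The regulatory particle binds the ends of the barrel, recognises ubiquitin, removes it and unfolds the substrate with a ring of ATPases. In growing axons local protein degradation by the proteasome is known to take part in the response to guidance cues, and the complex needs all standard subunits in every cell.

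Total expected counts were 670462 to 1208382 in the cKO libraries and 843647 to 1268430 in the WT libraries, and counting error is therefore large for weakly expressed members. The targeted gene Mettl14 had 2, 7 and 2 counts in cKO and 11, 8 and 5 in WT (exact two-sided permutation test of CPM, p = 0.3, where 0.1 is the smallest possible). Mettl3, the catalytic partner of Mettl14, had 1, 6 and 3 counts in cKO and 11, 8 and 3 in WT (the same exact permutation test, p = 0.4). At these counts neither gene checks the genotype labels. Both replicate 2 libraries had the most counts and the shortest mean fragments, 292.7 bases in cKO and 304.3 in WT, against 345.5 and 350.5 in the other cKO and 332.4 and 338.8 in the other WT libraries. Xist, which silences an X chromosome in female cells, had 2970, 2323 and 4618 counts in cKO and 0 in each WT library, and the Y-linked Eif2s3y had 0 in each cKO library and 54, 80 and 51 in WT, so genotype and sex-linked expression cannot be told apart. Psmd10 is the member on the X chromosome. The samples are labelled as callosal axons, and the libraries also held RNA of glial cells, in unequal amounts. The summed level of 8 markers of myelinating oligodendrocytes was 2.0 to 10.8 CPM (counts relative to the scaled library total) in cKO and 2536 to 4122 CPM in WT, with 4 of the 8 at 0 in every cKO library (Mag, Mog, Enpp6 and Myrf). For 5 markers of oligodendrocyte precursors it was 546 to 1314 CPM in cKO and 3803 to 4533 CPM in WT. For 6 astrocyte markers it was 1017 to 1486 CPM in cKO and 4858 to 5708 CPM in WT. For 7 projection neuron markers it was 5859 to 8011 CPM in cKO and 3152 to 3361 CPM in WT. Microglial markers, 6 in all, summed to 43.0 to 216 CPM in cKO (P2ry12 at 0 in each) and 66.3 to 447 CPM in WT, 5 endothelial markers to 39.6 to 64.1 CPM in cKO and 96.6 to 235 CPM in WT (Cldn5 at 0 in all 6), and 5 proliferation genes to 73.6 to 298 CPM in cKO and 393 to 664 CPM in WT. The part of this difference in cell types in any value below was not tested. In such bulk tissue, fewer cells of a type and less RNA per cell cannot be told apart.

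Proteasome mRNAs were abundant in the tract. Over the 34 members that passed the filter on low counts, the median of the mean level was 125 TPM (a relative transcript level corrected for length), against 29.1 TPM over all 5918 genes tested. In the plot of levels by gene the subunits do not share 1 level, although the complex holds them in equal numbers. Among the subunits counted in every library, the highest mean level was 4.31 times the lowest in the beta ring, 4.29 times in the ATPase ring, 3.53 times in the alpha ring and 7.41 times among the other regulatory subunits.

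**Figure D1:**
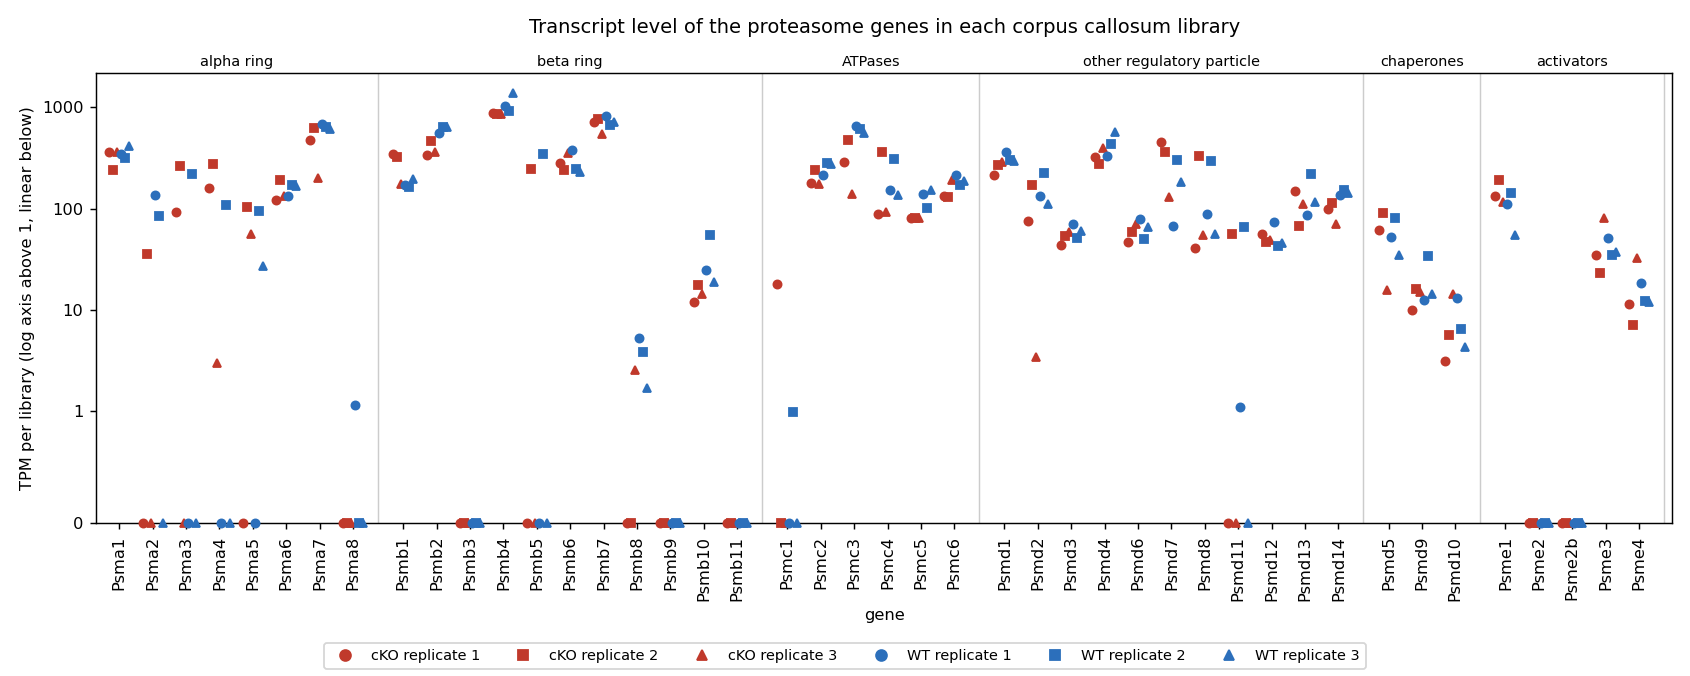
Level of 44 proteasome genes in TPM (log axis above 1, linear below) in each library, with cKO in red and WT in blue and the replicate number as the symbol; Psmc3ip is not drawn. Psmb4 has its 6 points between 861 and 1378 TPM, while Psma2, Psma3, Psma4, Psma5, Psmb5 and Psmd11 have points at 0 beside points well above 0, and Psmb3, Psmb9, Psmb11, Psme2 and Psme2b are at 0 in all 6 libraries.

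Psmb4, a structural subunit of the beta ring, was the most abundant member. Its level was 886, 861 and 870.4 TPM in cKO replicates 1 to 3, against 1037, 922 and 1378 TPM in WT. The catalytic subunit Psmb7, which cleaves after basic residues, had 720.3, 766 and 543 TPM in cKO and 818, 671 and 717 TPM in WT. Both genes were thus high in all 6 libraries, and Psmb7 overlapped between the groups. Psmb6, the subunit that cleaves after acidic residues, had 285, 240.0 and 351 TPM in cKO and 382, 247 and 227 TPM in WT. Psmb5, which cleaves after hydrophobic residues and is the target of the drug bortezomib, behaved differently. Its level was 0, 247 and 0 TPM in cKO and 0, 349 and 0 TPM in WT. In cKO replicate 2 its value lay near the 240.0 TPM of Psmb6, and in WT replicate 2 above the 247 TPM of Psmb6. The other libraries held 0 counts.

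In the alpha ring Psma7 was the most abundant, with 480.4, 620.3 and 202 TPM in cKO and 687, 641 and 610.5 TPM in WT. The low value is that of cKO replicate 3, and WT was close to uniform. Psma2 had the lowest mean level of the alpha subunits, with 0, 35.3 and 0 TPM in cKO and 136, 84.1 and 0 TPM in WT. In the ATPase ring, which unfolds the substrate, Psmc3 led with 286, 472 and 139 TPM in cKO and 654, 608 and 562 TPM in WT, so each cKO library was below each WT library. Psmc1 of the same ring was hardly counted, with 18, 0 and 0 TPM in cKO and 0, 1.0 and 0 TPM in WT. Among the other regulatory subunits the ubiquitin receptor Psmd4 was highest, with 323, 273 and 394 TPM in cKO and 329, 435 and 571 TPM in WT. The lid subunit Psmd11 was lowest, with 0, 56.1 and 0 TPM in cKO and 1.1, 65.3 and 0 TPM in WT. Psmd11 and Psmb5 share the pattern of being counted almost wholly in both replicate 2 libraries. The low ranks of Psma2, Psmc1 and Psmd11 rest on libraries at 0, and are not read as low abundance of the mRNA.

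The subunits at 0 differed from the others in a property of their sequence. Of the 31 standard subunits 8 had 0 or 1 count in at least 1 library: Psma2, Psma3, Psma4, Psma5, Psmb3, Psmb5, Psmc1 and Psmd11. All 8 share coding sequence with pseudogenes. Processed pseudogenes are copies of a spliced mRNA inserted elsewhere in the genome. As a measure of this, the share of all 50-base windows of the coding sequence that also stand in a pseudogene transcript of the GENCODE M21 annotation (GRCm38) was counted. It was 85.6% for Psma3, 79.1% for Psma5, 70.7% for Psmb3, 56.8% for Psmb5, 39.0% for Psma4, 32.3% for Psmd11, 21.3% for Psmc1 and 15.5% for Psma2. Psmd2, the scaffold of the base, also lay above 10%, at 25.6%, with 125, 375 and 4 counts in cKO and 224, 507 and 200 in WT. The other 22 standard subunits had at most 7.2% (Psmb1), 17 of them with no shared window, and the lowest count among them in any library was 28. The limit of 10% was set after the values were seen, and lies between Psma2 and Psmb1.

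**Figure D2:**
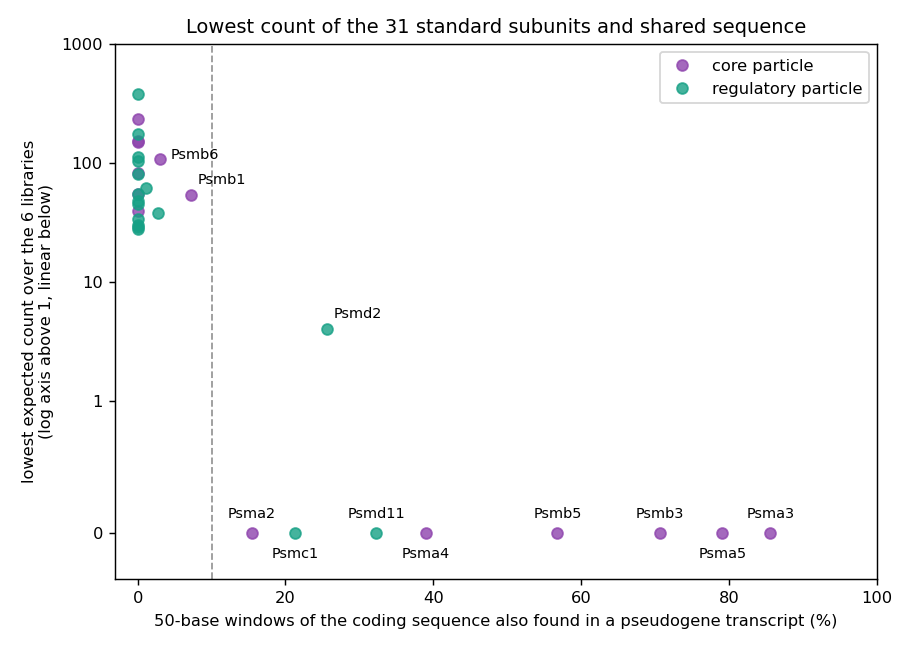
Lowest expected count of each of the 31 standard subunits over the 6 libraries (log axis above 1, linear below) against the share of its 50-base coding windows found in pseudogene transcripts, with the dashed line at 10%. The 22 subunits left of the line have 28 counts or more in every library, and right of it Psmd2 has a lowest count of 4 and the other 8 a lowest count of 0.

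How close these copies are can be read from the sequence. The following 60 bases of the coding sequence of Psmb5 (chromosome 14, 54614119 to 54618022, minus strand, positions 620 to 679 of the coding sequence) and of its pseudogene Gm3375 (chromosome 7, 3181093 to 3181888, plus strand) differ at 1 base, shown in capitals, at the end of an identical run of 194 bases.
Psmb5: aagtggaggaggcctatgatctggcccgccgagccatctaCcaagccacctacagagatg
Gm3375: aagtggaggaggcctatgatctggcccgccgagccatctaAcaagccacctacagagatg
The same holds for Psmd11 (chromosome 11, 80428615 to 80473248, plus strand, coding positions 511 to 570) and Gm14048 (chromosome 2, 130880866 to 130882133, plus strand), whose longest identical run is 244 bases.
Psmd11: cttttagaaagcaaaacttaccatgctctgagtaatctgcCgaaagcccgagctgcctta
Gm14048: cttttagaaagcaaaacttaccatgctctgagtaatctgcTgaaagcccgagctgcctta
Positions are of GRCm38, the assembly also called mm10, to which the submitters' processing notes refer.

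The zeros followed the library more than the genotype. Of the 31 standard subunits, 5, 2 and 7 had 0 or 1 count in cKO replicates 1 to 3, and 7, 2 and 7 in WT replicates 1 to 3. Psma3, an alpha subunit, had 62, 243 and 0 counts in cKO and 0, 210 and 0 in WT. Psma4, of the same ring, had 75, 182 and 1 counts in cKO and 0, 73 and 0 in WT. Psma5 had 0, 79 and 22 counts in cKO and 0, 73 and 16 in WT. Each of these was counted in both replicate 2 libraries and at 0 in at least 1 other WT library. Psmb3 had 0 counts in all 6 libraries. By counting error alone, a count of 0 is compatible with up to 3 counts in a library, which equal 2.41 to 4.24 CPM. For these subunits that is no ceiling on the level, since Psma3 had 0 counts in WT replicate 1 and 210 in WT replicate 2. A gene at 0 here is listed at 0, and is not read as absent.

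The same pattern was present in the whole table, so it is not particular to the proteasome. Of 4884 genes with a matched coding sequence and at least 50 counts in some library, 18.6% had 0 or 1 count in at least 1 library. Of 28 standard subunits that reach 50 counts 6 did, a share near that background. Among all such genes of more than 3 exons, the share was 42.6% of 460 genes with more than 10% of windows in pseudogene transcripts, 17.3% of 301 with fewer, and 9.0% of 3651 with none. Of the 7 standard subunits above 10% that reach 50 counts 6 were affected. Genes of 1 to 3 exons had low counts often even with no shared window (71.6% of 395 genes), but among the standard subunits Psmb5 alone has so few exons. By library, genes of more than 3 exons with more than 10% shared were at 0 or 1 in 19.8%, 3.7% and 28.5% of cases in cKO replicates 1 to 3 and in 31.5%, 4.8% and 22.8% in WT replicates 1 to 3. In all, 70 genes had at least 50 counts in both replicate 2 libraries and 0 or 1 in the other 4, among them Psmb5 and Psmd11. The part of pseudogene reads, fragment length or depth in these zeros was not tested.

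**Figure D3:**
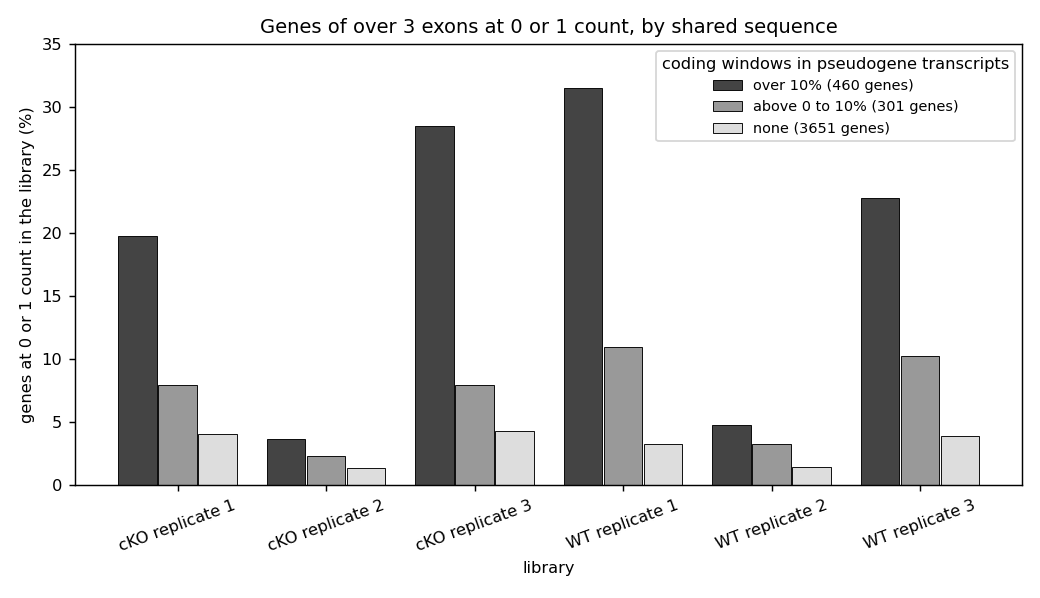
Share of genes at 0 or 1 count in each library, for genes of more than 3 exons that reach 50 counts somewhere, by the share of their coding windows found in pseudogene transcripts. In every library the bar of genes with more than 10% shared is the tallest, at 3.7% and 4.8% in the replicate 2 libraries of cKO and WT and between 19.8% and 31.5% in the other 4.

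Between the genotypes no proteasome gene passed the test. With edgeR's quasi-likelihood test over all genes, 0 of the 34 tested members were higher and 0 lower in cKO at an adjusted p below 0.05, against 0.49% higher, 0.422% lower and 0.912% in either direction among all genes tested. At an unadjusted p below 0.05 there were also 0 members, against 12.6% of all genes, and DESeq2 and limma-voom called 0. The SE of the log2 fold change had a median of 0.52 over the members (0.26 to 2.3). Changes of moderate size were therefore not detectable here, and large ones could be missed as well. The absence of calls does not show that the genotypes are alike. The median log2 fold change of cKO relative to WT was −0.14 over the members, −0.03 over the 13 tested genes of the core particle and −0.29 over the 15 of the regulatory particle, beside 0.07 over all genes. Members had positive values in 13 cases and negative ones in 21. In the regulatory particle 12 of 15 were negative and in the core particle 7 of 13, beside 2730 of all 5918 genes tested. In CPM the groups did not overlap in 4 members, or 11.8% (Psmc3, Psmc5, Psmc6 and Psmd14), each with all cKO libraries below all WT libraries, against 9.45% of all genes in that direction, 10.4% with cKO above WT and 19.8% in either. In TPM they did not overlap in 7 members, or 20.6%, again all lower in cKO, against 10.4% of all genes in that direction, 9.21% with cKO above WT and 19.7% in either. These 7 were Psmc3, Psmc5, Psmd14 and Psmd1 of the regulatory particle and Psmb2, Psmb4 and Psmb10 of the core particle, so 3 members were apart on both scales, and the core particle held 0 in CPM and 3 in TPM. The 11 members below the filter were Psma8, Psmb3, Psmb5, Psmb8, Psmb9, Psmb11, Psmc1, Psmd10, Psmd11, Psme2 and Psme2b.

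**Figure D4:**
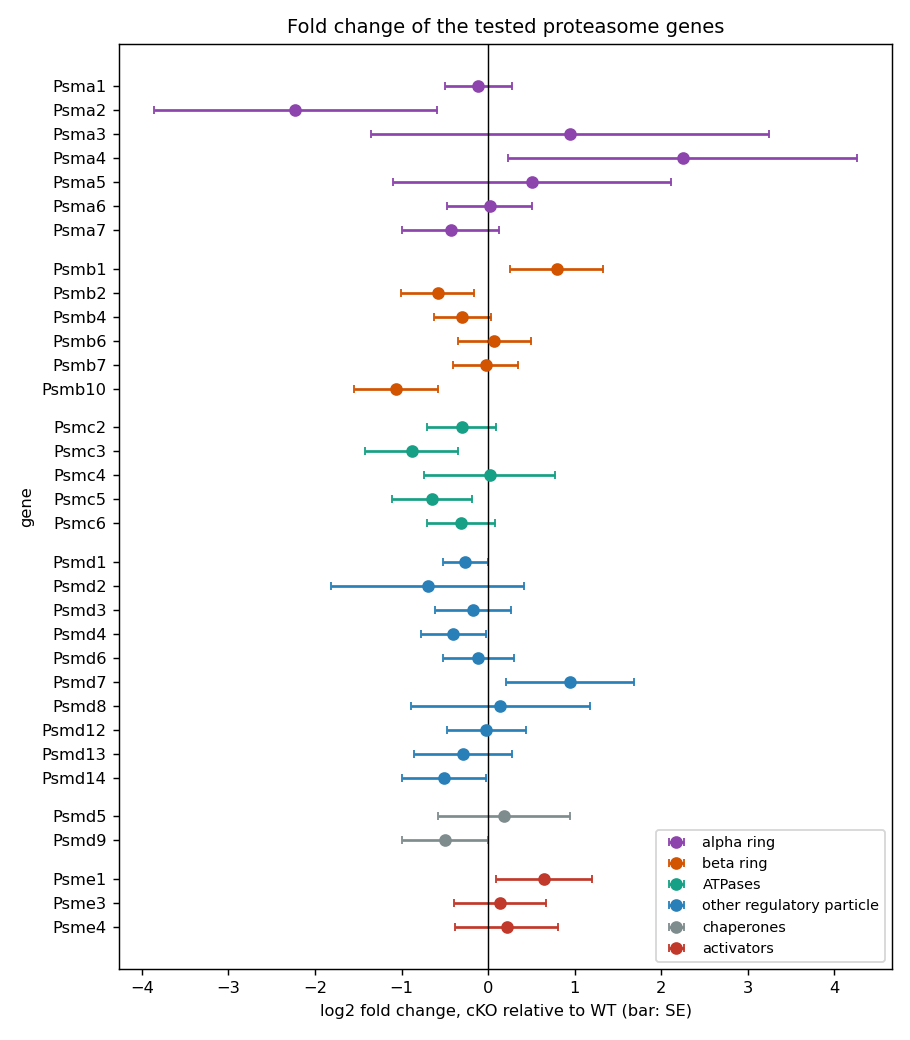
Log2 fold change of cKO relative to WT with its standard error (SE) for 33 tested members, grouped by their place in the proteasome; Psmc3ip is not drawn. No point passed the test, and the widest bars are those of Psma2, Psma3, Psma4 and Psma5, which have libraries at 0.

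The ATPase ring, with 5 tested genes, held 3 of the 4 members whose groups did not overlap in CPM. In TPM it held 2 of the 7, as Psmc6 overlapped. Over all genes tested the groups did not overlap in 19.8% in CPM and 19.7% in TPM. The lowest unadjusted edgeR p in the ring was 0.1454. Psmc3 had 312, 522 and 115 CPM in cKO and 619, 553 and 577 CPM in WT (−0.88 on the log2 scale, SE 0.54, edgeR adjusted p = 0.581). WT was narrow, and the cKO values spread over more than the distance between the groups. The value was −0.47 without cKO replicate 3 and −1.44 without cKO replicate 2. Psmc5 had 63.2, 65.1 and 48.1 CPM in cKO and 96.6, 66.7 and 113 CPM in WT (−0.64, SE 0.46, edgeR adjusted p = 0.656), with cKO replicate 2 just under WT replicate 2. Psmc6 had 138, 135 and 149 CPM in cKO and 194, 149 and 182 CPM in WT, where the highest cKO value, 148.5, all but meets the lowest WT value, 148.6. Psmc2 and Psmc4 overlapped. Summed over the ring's 6 genes, the level was 832, 1355 and 535 CPM in cKO and 1257, 1296 and 1308 CPM in WT. The highest of these 6 sums is a cKO library, so the groups overlap on this scale. In TPM the sums were 787, 1281 and 678 in cKO and 1378, 1475 and 1316 in WT, which do not overlap. The same was true in TPM of the standard beta ring, with 2577, 2903 and 2300.2 in cKO and 2962, 2992 and 3160.3 in WT. It was also true of the core subunits with at most 10% of windows shared, with 3557, 3727 and 3019 in cKO and 4162, 3826 and 4376 in WT. Both overlapped in CPM. The other TPM sums overlapped: alpha ring, other regulatory subunits, whole core particle, whole regulatory particle, regulatory subunits with at most 10% shared, and all members.

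**Figure D5:**
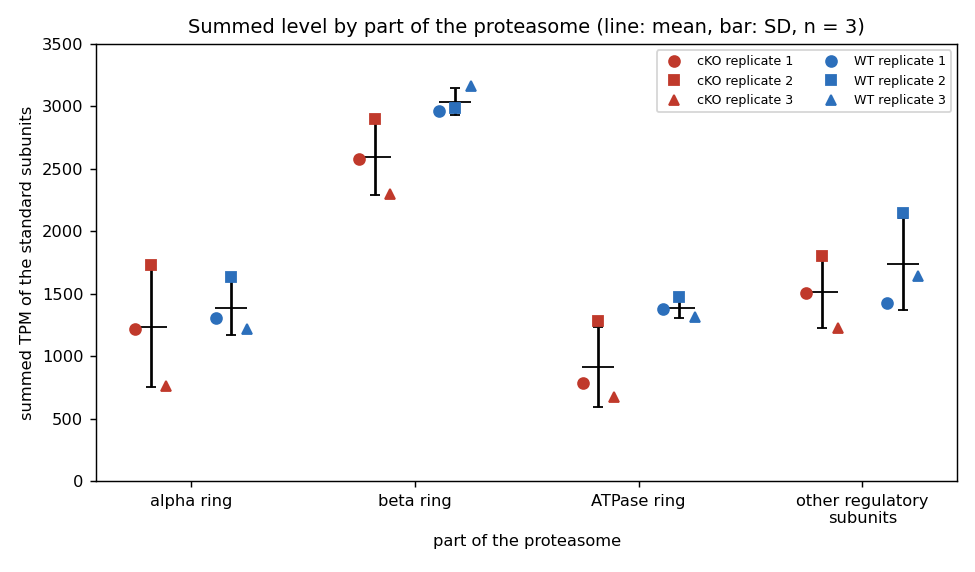
Summed TPM of the standard subunits of each part of the proteasome by library, with mean and SD of 3 libraries, cKO left of WT. The ATPase ring of cKO averages 915 ± 321 TPM and that of WT 1389 ± 80.2 TPM, and in all 4 parts cKO replicate 2 is the highest and cKO replicate 3 the lowest cKO library.

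In the rest of the regulatory particle, Psmd14, the deubiquitinase of the lid that cuts the ubiquitin chain from the substrate, was apart on both scales. It had 101, 116 and 53.8 CPM in cKO and 120.2, 130.1 and 136 CPM in WT (−0.51 on the log2 scale, SE 0.48, edgeR adjusted p = 0.756). The ubiquitin receptor Psmd4 had 272, 235 and 249 CPM in cKO and 240.3, 308 and 452 CPM in WT (−0.40, SE 0.38), and the groups overlapped. Psmd1, the large scaffold of the base and its most counted gene, had 528, 658 and 533 CPM in cKO and 773, 613 and 677 CPM in WT (−0.26, SE 0.26). The lid subunit Psmd7 had a positive value of 0.95 (SE 0.74, edgeR adjusted p = 0.687), from 487, 392.4 and 105 CPM in cKO and 61.8, 266 and 183 CPM in WT. Its spread within each group exceeded the difference between them. Psmd3, Psmd6 and Psmd12 of the lid were steady, each with 28 to 83 counts in every library. Psmd2 had 168, 375 and 5.66 CPM in cKO and 252, 407 and 233 CPM in WT, with cKO replicate 3 far below the others. Psmd8 was higher in both replicate 2 libraries, at 332 CPM in cKO and 247 CPM in WT, than in the other 4, which lay at 40.3 and 41.0 CPM in cKO and 76.4 and 52.4 CPM in WT. Psmd13 had 153, 71.1 and 86.3 CPM in cKO and 77.5, 189 and 113 CPM in WT.

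In the core particle, Psmb1, a structural beta subunit, had 204, 200.2 and 76.4 CPM in cKO and 87.6, 81.9 and 108 CPM in WT (0.79 on the log2 scale, SE 0.53, edgeR adjusted p = 0.624). Replicates 1 and 2 of cKO lay above WT and cKO replicate 3 below it. Psmb2, of the same ring, had 144, 212 and 116 CPM in cKO and 209, 239 and 261 CPM in WT (−0.58, SE 0.42, edgeR adjusted p = 0.657). Among the catalytic subunits, log2 fold changes were 0.07 (SE 0.43) for Psmb6 and −0.03 (SE 0.38) for Psmb7. Psmb4 stood at −0.30 (SE 0.33) and Psma7 at −0.43 (SE 0.56), but Psmb4 was at −0.07 without WT replicate 3 and Psma7 at −0.02 without cKO replicate 3. Psma1 and Psma6, the other alpha subunits with counts in every library, had 191 to 282 CPM and 55.2 to 112 CPM in cKO and 205 to 303 CPM and 64.0 to 87.3 CPM in WT. For Psma2, Psma3, Psma4 and Psma5 a fold change has little meaning with libraries at 0, and none of them passed the test. Over all its 19 genes the core particle summed to 2142, 2751 and 1283 CPM in cKO and 2027, 2226 and 2244 CPM in WT, and the regulatory particle to 2751, 3787 and 1761 CPM in cKO and 3081, 3660 and 3340 CPM in WT. Both sums overlapped between the groups. The ratio of regulatory to core particle in summed TPM was 0.603, 0.663 and 0.62 in cKO and 0.653, 0.773 and 0.673 in WT, which also overlap.

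The inducible catalytic subunits replace the standard ones under interferon and are typical of immune cells, in the brain microglia. They were scarce. Psmb8 had 0, 0 and 1 counts in cKO and 3, 3 and 1 in WT, and Psmb9 had 0 in all 6 libraries. Psmb10 was counted in each library, with 9.41, 14.0 and 8.49 CPM in cKO and 16.9, 36.1 and 14.0 CPM in WT. Its log2 fold change was −1.06 (SE 0.49, edgeR adjusted p = 0.441), with the smallest p of all members, and −0.52 without WT replicate 2. The groups of Psmb10 overlapped narrowly in CPM (14.01 in cKO replicate 2, 13.97 in WT replicate 3). In TPM they did not (17.4 in cKO replicate 2, 18.9 in WT replicate 3). The microglial markers summed to 43.0, 216 and 191 CPM in cKO and 66.3, 447 and 234 CPM in WT. WT replicate 2 was the highest library in both. In WT replicate 1 the sum lay below cKO replicates 2 and 3, while Psmb10 lay above every cKO library. A relation between the sum and Psmb10 was not tested. The testis subunit Psma8 had 1 count in WT replicate 1 and 0 elsewhere, and the thymus subunit Psmb11 had 0 in all 6.

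Activators open the core without ubiquitin recognition. Psme1, a subunit of the interferon-inducible activator PA28, had 71.3, 108 and 46.7 CPM in cKO and 51.7, 65.1 and 27.9 CPM in WT (0.64 on the log2 scale, SE 0.55, edgeR adjusted p = 0.722), although 21.1% of its coding windows stand in pseudogene transcripts. Psme2, its partner in the same ring, had 0 counts in all 6 libraries, as had its retrocopy Psme2b, a gene of 1 exon with which Psme2 shares 69.5% of its coding windows. Reads of this pair are uncertain, and their zeros are not read as a missing subunit. Psme3, which forms the nuclear form of the activator, had 67.2, 44.0 and 116 CPM in cKO and 84.2, 54.6 and 67.5 CPM in WT (0.14, SE 0.53). Psme4, the large single-chain activator PA200, had 59.2, 36.0 and 126 CPM in cKO and 82.0, 51.4 and 57.0 CPM in WT (0.21, SE 0.60). In both genes cKO replicate 3 was the highest library, while it was the lowest cKO library in the summed level of the core and of the regulatory particle.

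The chaperones that assemble the base of the regulatory particle were expressed at low to moderate levels. Psmd5 averaged 55.7 ± 37.3 TPM in cKO and 55.8 ± 23.1 TPM in WT (SD, n = 3 each), Psmd9 13.5 ± 3.18 TPM in cKO and 20.2 ± 11.9 TPM in WT, and Psmd10, also known as gankyrin, 7.65 ± 5.88 TPM in cKO and 7.87 ± 4.49 TPM in WT. None of these differed beyond its spread. Psmc3ip had 8.07, 5.0 and 19.8 CPM in cKO and 29.2, 12.1 and 30.3 CPM in WT (−1.13 on the log2 scale, SE 0.62, edgeR adjusted p = 0.524), with groups that overlapped.

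RSEM divides the reads of a gene between its transcripts. Psmd4 was the abundant member with 2 transcripts in use. The longer one, of 1344 bases, took 40.2%, 26.5% and 30.7% of its TPM in cKO and 19.4%, 31.9% and 28.8% in WT, and the one of 1335 bases the rest. Psma7 came almost wholly from its transcript of 952 bases, with at least 98.8% in each cKO library and at least 98.9% in each WT library.

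Other genes of the ubiquitin and proteasome pathway held no call either. They include Adrm1 and Shfm1, subunits of the regulatory particle with other symbols. Adrm1 stood at −0.6 (SE 1.33) on the log2 scale, with 0 counts in WT replicate 1, and Shfm1 at 0.8 (SE 0.97). Of 33 such genes listed, 24 were tested, and 0 passed the edgeR test in either direction, with 1 at an unadjusted p below 0.05 and a median log2 fold change of 0.07, the same as over all genes. Ubqln2, a shuttle factor of the ubiquilin family, stood at 0.77 (SE 0.36, edgeR adjusted p = 0.451), Vcp, the segregase that extracts proteins for degradation, at −0.39 (SE 0.24, adjusted p = 0.584), and Akirin2, which imports proteasomes into the nucleus, at 0.76 (SE 0.54, adjusted p = 0.654). Nfe2l1, the transcription factor that raises proteasome genes when the proteasome is inhibited, had 3, 3 and 4 counts in cKO and 2, 7 and 2 in WT, too few to test. The most counted ubiquitin gene, Ubb, had 3985, 5116 and 2369 counts in cKO and 4829, 4873 and 4500.3 in WT, with a log2 fold change of −0.08 (SE 0.22).

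Promoters were examined for sequence that members share. RefSeq windows of 250 bases before to 50 after the start (GRCm38.p6) were found for 38 of the 45 members, and 7 motifs were searched on both strands. Psma8, Psmb1, Psmb2, the catalytic Psmb7, Psmc3, Psmd3 and Psmd7 had no window and were not searched. The element through which Nfe2l1 acts, TGACNNNGC, stood in 6 members (15.8%), against 14.0% of all 27025 genes with a window and 16.8% of the 4572 of them that were tested for expression. The core of the site of ETS factors, CCGGAA, stood in 18 members (47.4%), against 16.7% of all genes and 32.8% of tested ones. The GC box GGGCGG stood in 57.9% of members, against 38.2% of all and 74.3% of tested genes, the CCAAT box in 39.5%, 41.1% and 43.0%, and the E box CACGTG in 10.5%, 8.09% and 12.5%, in the same order. The motifs TGACGTCA and TGACTCAGC were in 0 members, and in 2.03% and 0.503% of all genes. The matches to TGACNNNGC in the promoters of both standard catalytic subunits that hold one, and a match to CCGGAA in the lid subunit Psmd11 and the ATPase Psmc6, are shown on the gene's strand with the match in capitals.
Psmb5, chr14:54618022-54618054, minus strand: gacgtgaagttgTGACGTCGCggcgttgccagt
Psmb6, chr11:70525336-70525368, plus strand: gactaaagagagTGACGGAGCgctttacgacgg
Psmd11, chr11:80428607-80428636, plus strand: ccgggtgtgtgtTTCCGGcgtcggcggccg
Psmc6, chr14:45329712-45329741, plus strand: gaggcgggccagCCGGAAggggcggagcca
The match of Psmd11 is CCGGAA read on the other strand. Of these 4 matches none overlaps another motif of the search. A relation of these motifs to the levels of the genes was not tested, and the zeros of Psmb5 are not read as absence.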

How the data were processed

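Sample titles gave the group and replicate number. Each library has its own transcript table, deposited by the authors as RSEM output. The submitters' processing notes list STAR 2.7.10b, RSEM 1.3.3 and mm10; no annotation release, strand setting or filter is stated. By their column headers, the authors' expected counts are fragments estimated for each transcript, the deposited TPM values are relative levels corrected for length, and the deposited transcript shares are a percent of the gene's TPM. Counts and TPM were added up per gene, and the summed counts were rounded. The kit does not mark strand, so overlapping antisense genes cannot be separated.

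Differences were tested in R 4.3.3 with the quasi-likelihood test of edgeR 4.0.16 (TMM factors, filterByExpr at a minimum count of 10) over 5918 genes of all 6 libraries, with Benjamini-Hochberg adjustment and no covariate. It was tested on simulated data, where most of the changes put in were not called. CPM uses the same scaling. The SE is the absolute log2 fold change over the root of the F statistic and restates the p-value. Counting floors cover counting error only. As alternatives, libraries were scaled by RLE or upper quartile, the filter was changed or dropped, and DESeq2 1.42.0, limma-voom or limma 3.58.1 was used, the last on log2(TPM + 1) and log2(TPM + 0.1), and further fits had the replicate number as a block or left out libraries.

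Every member is named. Values in each library are given for the catalytic, inducible, activating, most and least abundant members, for Psmd4 and Psmd14, and for members at 0 or 1 count. Others were added after their values were seen. Among the other pathway genes, 1 is not reported here. Coding sequences and exons came from GENCODE M21 transcripts that carry the RefSeq accession of the files, for all 45 members. The members and lists were chosen with earlier results of these data known.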

Additional observations from a re-analysis of the deposited data

How the results depend on the processing

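The count of proteasome genes called higher and the count called lower in cKO were 0 in each of the 16 alternatives, with a lowest adjusted p of 0.343 (Psmc3ip, without cKO replicate 3). The count at an unadjusted edgeR p below 0.05, 0 in the main fit, was not stable. It was 1 with upper-quartile scaling and 1 without cKO replicate 2. With the replicate number as a block, without cKO replicate 3 and without WT replicate 2 it was 2 each. Upper-quartile scaling moved the median log2 fold change of all genes to −0.22 and that of the members to −0.46, which is −0.24 relative to all genes, against −0.21 with TMM. Over the alternatives the members' median relative to all genes ran from −0.12 (filter of 1 CPM in 3 libraries) to −0.42 (without both replicate 2 libraries). Signs near 0 were not stable: 15 of 34 tested members took the other sign in at least 1 alternative. Psmb6 stood at −0.26 and Psme3 at −0.0671 with upper-quartile scaling. With limma, Psme3 stood at −0.0049 on log2(TPM + 1) and −0.0087 on log2(TPM + 0.1), and Psme4 at −0.0045 on the second scale. Leaving out 1 library at a time gave −0.0466 to 0.32 for Psmb6, −0.22 to 0.23 for Psmb7, −0.29 to 0.41 for Psme3, −0.40 to 0.54 for Psme4, −0.34 to 0.18 for the core particle's summed CPM (positive without cKO replicate 3) and −0.57 to −0.04 for that of the regulatory particle. The same gave −1.32 to −0.52 for Psmb10, −1.44 to −0.47 for Psmc3, −0.86 to −0.02 for Psma7, −0.44 to −0.07 for Psmb4, −0.86 to −0.40 for Psmb2, 0.50 to 1.14 for Psmb1, −0.83 to −0.49 for Psmc5, −0.73 to −0.24 for Psmd14, −0.60 to −0.13 for Psmd4, −0.37 to −0.18 for Psmd1, 0.48 to 1.43 for Psmd7, 0.29 to 0.92 for Psme1 and −1.84 to −0.77 for Psmc3ip. In TPM, a comparison added after seeing the data, 7 members had groups that did not overlap, against 4 in CPM, and the cause was not tested. The log2 difference in the ratio of regulatory to core particle, −0.15 from sums, was −0.83 from medians over the standard subunits, and the cause was not tested. With the replicate number as a block, 0 members were called higher and 0 lower, with a lowest adjusted p of 0.358. The numbers were not taken as pairs in the main test. Deviations of same-numbered libraries correlated at 0.06, 0.46 and 0.16, and those of differently numbered libraries at −0.31 to 0.20. The 0.46 of replicate 2 was the highest of all. Each replicate 2 library correlated negatively with the differently numbered libraries of the other group, so a shared trait of the replicate 2 libraries is not excluded. Subunits with libraries at 0 and those near the counting floor allow no reliable fold change at this depth.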
